A study of Caenorhabditis elegans with 2 samples.

Results

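The 10 genes elt-1, elt-3, egl-18, elt-6, lin-26, nhr-23, nhr-25, ceh-16, blmp-1 and myrf-1 encode transcription factors of the worm epidermis and its seam cells. They were chosen by name among the 19973 protein-coding genes of the annotation, with earlier results of these data known. Chromatin regions recovered with the Smad protein SMA-3 were listed for each. A region belonged to a gene when its summit, the base of highest enrichment, fell between 5000 bp before and 5000 bp past the gene bounds, a range called in reach below. By that rule 13 of the 4205 peaks that passed the reproducibility filter of the authors (the optimal list) fell to these genes, as did 110 of the 30000 regions of the longer, unfiltered list made from both replicates pooled.

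The regions came from chromatin immunoprecipitation sequencing (ChIP-seq) with an anti-GFP antibody in whole Caenorhabditis elegans hermaphrodites at the second larval stage (L2), 24 hours after release from L1 starvation. Both biological replicates were of strain CS152, which carries the sma-3(wk30) mutation and the transgene array qcIs[gfp::sma-3+rol-6]. The labels write the tag before SMA-3 in the strain name and as a C-terminal GFP-FLAG tag in a note, and do not name the promoter of the transgene. There is 1 group and 1 control library shared by both replicates, so no comparison between conditions was possible, and an untagged strain was not analysed here. Because whole animals were used, a region bound in few cells and one weakly bound in many cannot be told apart, and the cell type in which SMA-3 met a gene is not resolved.

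SMA-3 is a receptor-regulated Smad of the BMP-like pathway, which carries the signal of the secreted ligand DBL-1 from the cell surface to chromatin and controls body size through the epidermis. The worm epidermis consists of syncytial cells, of which hyp7 is the main one, and of rows of lateral seam cells that divide at each larval stage and feed daughters into the syncytium. ELT-1 and LIN-26 establish epidermal fate, ELT-3 acts in the differentiating hypodermis, EGL-18, ELT-6 and CEH-16 act in seam cells, and NHR-23, NHR-25, BLMP-1 and MYRF-1 act in the molting and timing programs of the larval epidermis.

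The 6 windows printed here are the sequences that the results on myrf-1, nhr-25, elt-3 and elt-1 turn on. They include the highest peak of the whole set with its intronic neighbour, and the highest peak at a nuclear receptor gene. The other 3 are the intronic peaks at GATA factor genes whose windows hold the word TGATAA. A further intronic elt-3 peak, at rank 2871, holds none of the words searched and is not printed. Each printed window holds 151 bases of RefSeq sequence of the assembly WBcel235 (ce11), with the summit at base 76. It is written 5′ to 3′ on the strand of the gene. Capitals mark matches, on either strand, to short words of known factors. GTCTG and the longer CAGACA are Smad words that share letters: the reverse complement of the shorter lies inside the longer, so a match to the longer one counts for both. GGCGC is the GC-rich word bound by Smads. TGATAA and its variant AGATAA are GATA words. GAGAGA is a repeat common in worm promoters, and AGGTCA is the half-site of nuclear receptors.
myrf-1, upstream, chrII:10502777-10502927, minus strand: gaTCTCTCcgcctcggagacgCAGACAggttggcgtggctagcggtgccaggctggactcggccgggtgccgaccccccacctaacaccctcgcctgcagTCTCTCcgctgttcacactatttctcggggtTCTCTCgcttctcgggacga
myrf-1, intron, chrII:10501747-10501897, minus strand: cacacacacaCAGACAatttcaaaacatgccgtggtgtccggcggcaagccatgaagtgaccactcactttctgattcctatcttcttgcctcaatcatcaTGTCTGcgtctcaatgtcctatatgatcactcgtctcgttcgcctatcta
nhr-25, upstream, chrX:13008226-13008376, plus strand: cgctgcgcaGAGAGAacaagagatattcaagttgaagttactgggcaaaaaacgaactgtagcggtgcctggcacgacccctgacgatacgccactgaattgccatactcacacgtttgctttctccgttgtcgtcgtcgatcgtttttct
elt-3, intron, chrX:13937534-13937684, plus strand: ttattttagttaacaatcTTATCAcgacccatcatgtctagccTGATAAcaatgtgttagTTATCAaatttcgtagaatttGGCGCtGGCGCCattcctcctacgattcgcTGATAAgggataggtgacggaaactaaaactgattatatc
elt-3, intron near the last start, chrX:13939508-13939658, plus strand: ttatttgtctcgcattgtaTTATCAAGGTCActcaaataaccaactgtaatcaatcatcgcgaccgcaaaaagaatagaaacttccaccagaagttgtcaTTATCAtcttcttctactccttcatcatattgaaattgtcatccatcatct
elt-1, intron, chrIV:9615663-9615813, plus strand: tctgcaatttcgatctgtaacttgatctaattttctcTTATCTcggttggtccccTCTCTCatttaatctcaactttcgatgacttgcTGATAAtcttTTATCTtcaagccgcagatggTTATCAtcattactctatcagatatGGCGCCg

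Of the 10 genes, 7 had an optimal peak in the gene or within 5000 bp (70%, exact 95% binomial interval 34.8% to 93.3%): elt-1, elt-3, nhr-23, nhr-25, ceh-16, blmp-1 and myrf-1. The same rule called 38.6% of all protein-coding genes. A summit from 1000 bp upstream to 200 bp downstream of an annotated start site, the window taken here as a promoter, was present at 6 of the 10 (60%, 26.2% to 87.8%), against 14.3% of all genes. The gene missing from the second count was ceh-16. At the same 6 genes a peak in reach had the member's own start site as its nearest one, which held for 15.7% of all genes. The number of start sites enters the promoter and nearest-start counts: elt-1, elt-3 and nhr-23 have 6 each, and the 19973 genes have 29314 in all. At elt-1, elt-3 and nhr-23 the promoter peak counted through a later start, with no optimal peak in the window of the first. The counts were not adjusted for this. Nor was the count in reach adjusted for the searched span. Its median was 15.5 kb at the 10 genes and 12 kb at all genes. None of these intervals accounts for the way the genes were picked, which was with earlier results of these data known. No test of the counts was made.

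The peaks of these genes were of middle rank. The authors' signal value, of unstated scale, ran from 70.1 to 1762 over the optimal list with a median of 121, and the median over the 13 peaks was 108. Counted from the highest signal, the 13 peaks held ranks from 617 to 4129 of 4205, with a median of 2476. The highest, upstream of myrf-1, had 3.52 times the signal of the lowest peak on the list. Even so, 8.52% of all genes had a region of at least that rank in reach, against 12.3% for the rank of the nhr-25 peak and 17.5% for that of the blmp-1 peak.

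**Figure D1:**
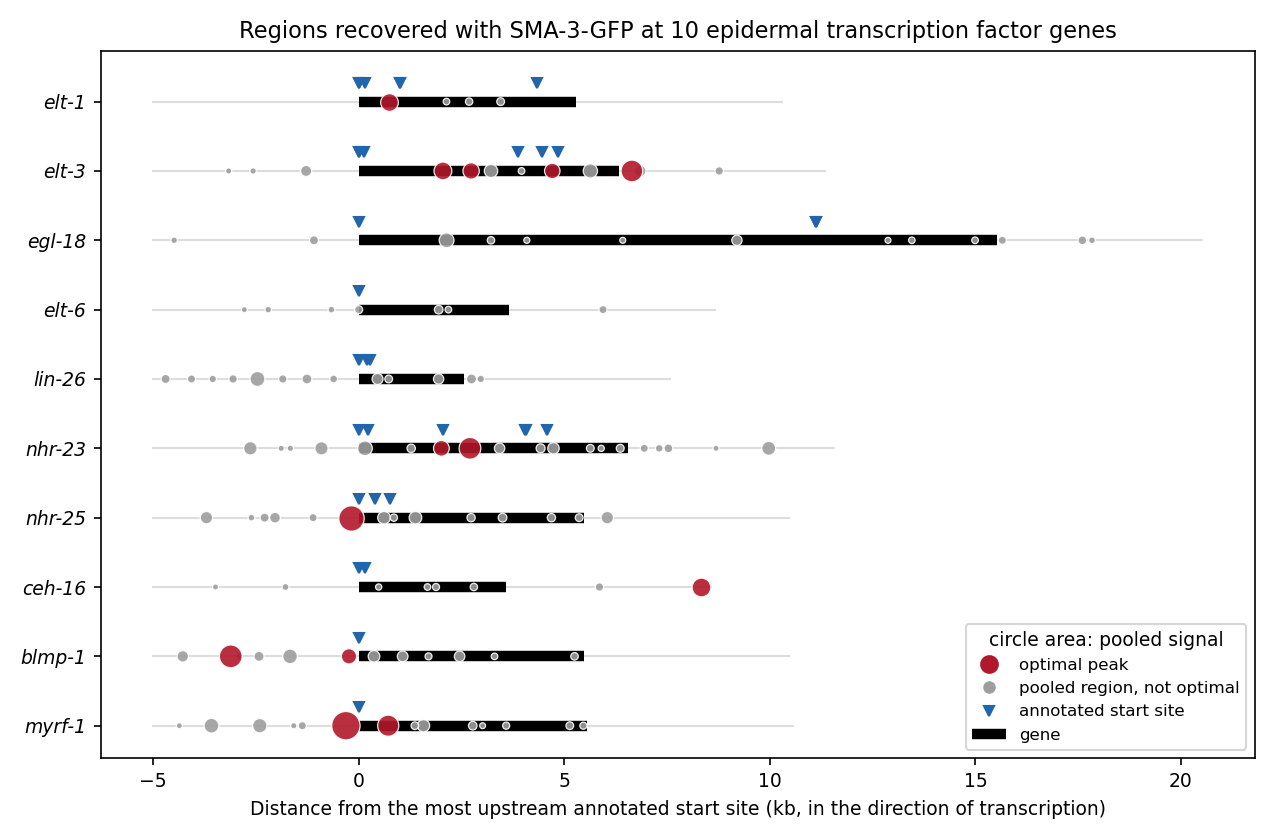
The map draws each of the 10 genes from its first start site in its direction of transcription, with pooled regions and optimal peaks placed by the distance of their summit in bp. Optimal peaks lay in reach of 7 of the genes, with 4 of them in or just past elt-3, while egl-18, elt-6 and lin-26 had unfiltered regions alone. The peak in reach of ceh-16 lay past that gene, 114 bp upstream of the start of dnj-10.

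The GATA factors ranged from 4 optimal peaks at elt-3 to none at egl-18 and elt-6. elt-3 lies on chromosome X at 13934874 to 13941216, on the plus strand, and has 6 annotated start sites spread over 4852 bp. Its highest peak, with a pooled signal of 144 and rank 1621, had a signal of 53.5 in replicate 1 and 90.1 in replicate 2. That summit lay beyond the 3′ end of the gene, 1794 bp downstream of the last start site and 6646 bp from the first. The other 3 peaks were intronic, with signals of 97.2, 82.3 and 73.4 at ranks 2871, 3493 and 3998, and lay 1820, 1134 and 143 bp upstream of the nearest later start site. The last of these was therefore in a promoter window of the shortest transcripts, and no optimal peak fell in the window of the first start site. Having 4 or more optimal peaks in reach was found for 1.87% of all genes, and elt-3 was the sole case among the 10.

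The replicates ranked the elt-3 peaks differently. The downstream peak ranked 1971 in replicate 1 and 1508 in replicate 2. The peak 1820 bp upstream of its start was higher in replicate 1, at 2463 against 4023, and both remaining intronic peaks were higher in replicate 2, at ranks 3145 and 3720 against 4222 and 4743 in replicate 1. A further region, in a coding exon 783 bp past the last start and at rank 4770 just outside the optimal list, was higher in replicate 1, at 3068 against 6465. No replicate was thus higher throughout the gene.

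elt-1, the GATA factor at the top of the epidermal hierarchy in the embryo, had 1 optimal peak. The gene lies on chromosome IV at 9614995 to 9620280, plus strand, and the peak interval at 9615538 to 9615937 sits in an intron. Its signal was 96.1 at rank 2914, with 49.8 and rank 2207 in replicate 1 and 48.2 and rank 3640 in replicate 2. The summit was 743 bp downstream of the first of 6 start sites and 252 bp upstream of the one at 9615990, and it counted as a promoter peak through that later start. elt-1 had 4 pooled regions in all, the fewest of the 10 genes.

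egl-18 (also called elt-5) and elt-6 are adjacent GATA genes on chromosome IV, separated by 136 bp, that maintain seam cell identity. egl-18, at 1902322 to 1917840, had 13 pooled regions, of which the highest had a signal of 67.5 at rank 4394, just below the end of the optimal list. It ranked 4489 in replicate 1 and 4642 in replicate 2, below the first 4205 in both. Its summit was intronic, 2138 bp past the first start site of the Ensembl model, whereas RefSeq begins the gene at 1913446, downstream of that summit. elt-6 had 7 pooled regions, 6 of them also within reach of egl-18, and its highest, in a coding exon, had a signal of 22.9 at rank 13467. The region 1 bp upstream of the elt-6 start ranked 15762 with a signal of 19.9. The deposited lists include background at such ranks, so a region at elt-6 cannot be told apart from background here.

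lin-26 and ceh-16 differed from the other non-GATA genes in having no optimal peak near their own start. lin-26, a zinc-finger gene needed for epidermal fate, lies on chromosome II at 7682198 to 7684764, and its annotated start is overlapped over 166 bp by the upstream neighbour lir-1. Its highest region had a signal of 67.9 at rank 4369, with a signal of 24.1 and rank 5661 in replicate 1 and 47.8 and rank 3683 in replicate 2. The summit lay 2462 bp upstream of the lin-26 start inside an intron of lir-1. lin-26 was thus within reach of the first 4205 regions in replicate 2 and not in replicate 1.

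ceh-16, the engrailed homologue that separates seam from ventral and dorsal epidermis, lies on chromosome III at 8622735 to 8626314. The optimal peak that counted for it had a signal of 108 at rank 2476, with 43 in replicate 1 and 61.9 in replicate 2. Its summit was 8171 bp downstream of the nearest ceh-16 start and 114 bp upstream of the start of dnj-10, in whose promoter window it lay. The count of 7 genes therefore includes ceh-16 by proximity, and the highest region inside ceh-16 itself ranked 19111 with a signal of 16.8.

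The nuclear receptor genes both carried peaks at or near an annotated start. nhr-25, which encodes the worm Ftz-F1 family receptor used in molting and seam cell contacts, lies on chromosome X at 13008493 to 13013964. Its peak, at 13008206 to 13008419, had a signal of 198 at rank 940, with 74.2 and rank 1179 in replicate 1 and 131 and rank 783 in replicate 2. The summit was 192, 585 and 965 bp upstream of the 3 start sites. It overlapped the annotated non-coding genes F11C1.12 and F11C1.13, so reads there cannot be assigned to the nhr-25 promoter alone. A lower region 608 bp past a start site ranked 6202 in the pooled list, but 3725 in replicate 2 and 11945 in replicate 1.

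nhr-23, the ROR family receptor that drives the molting cycle, lies on chromosome I at 7214745 to 7221299 and has 6 start sites. Its higher peak had a signal of 145 at rank 1599, with 73.1 and rank 1210 in replicate 1 and 79.5 and rank 1835 in replicate 2, and lay in an intron 668 bp past the nearest start. The other had a signal of 76.1 at rank 3839 and lay 27 bp upstream of the start at 7216784, the summit closest to a start site in the set. It was the peak on which the replicates parted most, at rank 2374 in replicate 1 and 6940 in replicate 2. At the first start sites, a region in an untranslated exon 153 bp past the first of them ranked 4473 and so lay just outside the optimal list. nhr-23 had 19 pooled regions, the most of the 10 genes.

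blmp-1 and myrf-1 each have 1 annotated start, and each had an optimal peak in its promoter window and another outside it. BLMP-1 is the worm Blimp-1 family zinc-finger protein that acts in larval timing. Its gene lies on chromosome I at 10409302 to 10414773, and its higher peak had a signal of 159 at rank 1386, 3111 bp upstream of the start and over the non-coding gene F25D7.8. The signals there were 55.6 in replicate 1 and 105 in replicate 2, at ranks 1868 and 1158 of their lists. The promoter peak, 236 bp upstream, was close to the end of the list, with a signal of 71.3 at rank 4129. It ranked 3183 in replicate 1 and 5611 in replicate 2, so the blmp-1 promoter rested on replicate 1.

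MYRF-1 is a membrane-bound factor that is cleaved to release its DNA-binding part and acts in larval progression and molting. Its gene lies on chromosome II at 10496987 to 10502541 on the minus strand. The highest peak of the whole set, at 10502753 to 10502992, had a signal of 247 at rank 617, with 87.3 and rank 865 in replicate 1 and 159 and rank 507 in replicate 2. It was 311 bp upstream of the start, over the non-coding gene F59B10.7, so reads there cannot be assigned to the myrf-1 promoter alone. The second, intronic and 719 bp past the start, had a signal of 137 at rank 1759, with 41.9 and rank 2834 in replicate 1 and 92.2 and rank 1456 in replicate 2. Both lay within the first 4205 regions of each replicate. Further upstream, regions 2405 and 3580 bp from the start had signals of 63.3 and 66.4, just outside the optimal list.

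Near the end of the optimal list the genes were spread on both sides. Just inside stood the promoter peaks of nhr-23 (signal 76.1), elt-3 (73.4) and blmp-1 (71.3), and just outside stood lin-26 (67.9), egl-18 (67.5) and the further nhr-23 region (66.6). With the pooled list read down to the 5405 regions that the optimal list holds on the ce10 build, lin-26 and egl-18 joined. That made 9 of 10 genes, against 44.5% of all genes. Both joined with a limit: the lin-26 region was nearest to a start of lir-1, 1309 bp away. The egl-18 summit lay more than 5000 bp upstream of the RefSeq start of that gene, and so was in reach by the Ensembl model alone. elt-6 was the gene without a region even then. Only 6 of the 13 peaks stood among the higher-ranked 2102 of the optimal list, and counting those alone left a promoter peak at 2 genes, nhr-25 and myrf-1.

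Across the 13 peaks, position relative to the genes was mixed. The summit lay upstream of the nearest own start site in 9 peaks, with a median distance of 668 bp in either direction, and 6 lay in an own promoter window. A non-coding gene held the summit of 3 peaks, against 9.89% of all optimal summits. They were those upstream of myrf-1 and nhr-25 and the higher one at blmp-1. Introns of the gene itself held 7 of the 13 summits, whereas 23.3% of all optimal summits lay in an intron and in no exon of a protein-coding gene. The elt-1 peak, 3 elt-3 peaks and both nhr-23 peaks are intronic from the first start and upstream of a later one. In worms an annotated 5′ end often marks a trans-splice site and not the start of transcription, so these distances are to annotated ends.

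In replicate 1 the first 4205 regions reached 7 of the genes (38.3% of all genes), and in replicate 2 they reached 8 (38.5% of all genes), the addition being lin-26. Of the 13 peaks, 11 overlapped a region among the first 4205 of replicate 1 and 11 one of replicate 2, by at least 1 bp, and 9 overlapped both. For all optimal peaks the shares were 87.8%, 91.6% and 80.3%. All 6 member peaks among the higher-ranked 2102 were over both replicates, as were 99.6% of all such peaks, whereas 3 of the lower 7 were, against 61% of all. The 4 that were not over both were those at nhr-23 (rank 3839), elt-3 (3493 and 3998) and blmp-1 (4129). Since the optimal list was derived from the replicate lists, this overlap is partly built in. Replicate 1 ranked 5 of the peaks higher and replicate 2 ranked 8 higher, so neither replicate carried the set.

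**Figure D2:**
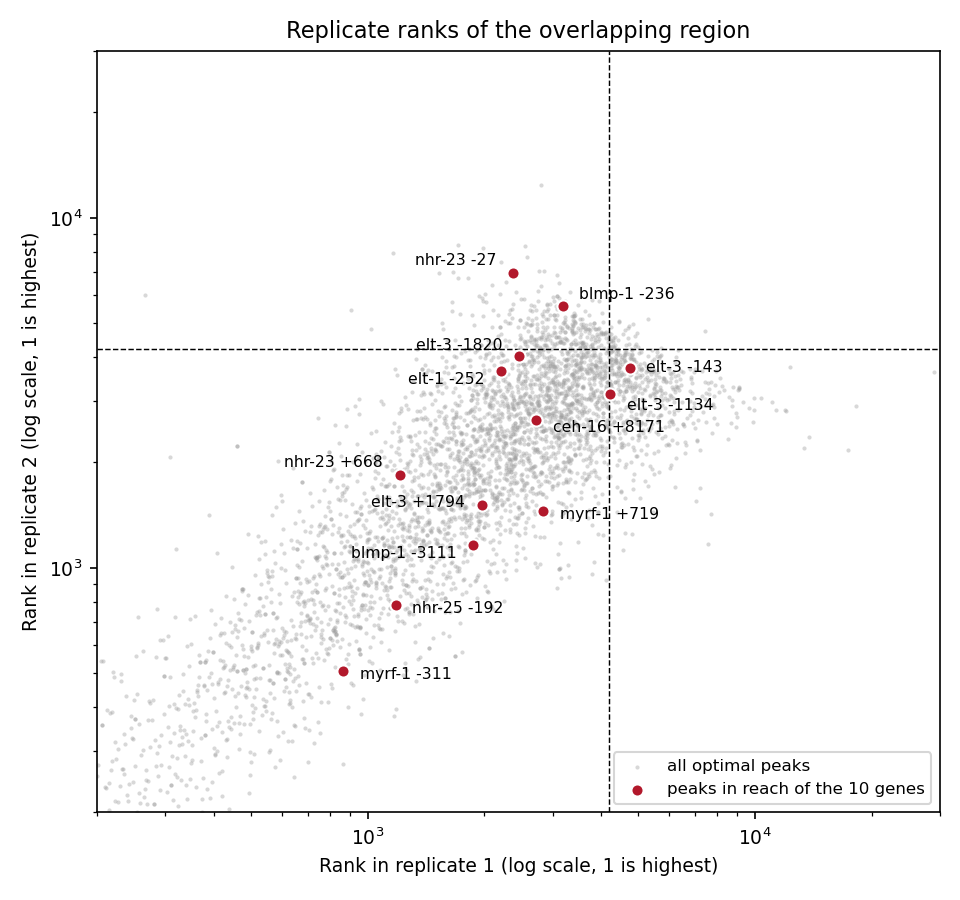
Each point is 1 optimal peak, with its rank in the replicate 1 list on one log axis and in the replicate 2 list on the other, coloured for the 13 peaks of the 10 genes and grey for all others. The 252 peaks above rank 200 in either replicate lie outside the axes, and 8 with no overlapping region in a replicate list are not drawn. Dashed lines mark rank 4205 in each list and labels give the distance in bp to the nearest own start. The ceh-16 peak has nearly equal ranks of 2717 and 2646, and the nhr-23 peak, at 2374 and 6940, has the most unequal ones of the 13.

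Regions below the optimal threshold were also frequent at these genes. Over each gene and its 5000 bp on either side, the pooled list held a median of 0.755 summits per kb at the 10 genes and 0.254 at all genes. The members ran from 0.262 at elt-1 to 1.15 at nhr-23, and all 10 stood above the median of all genes, 9 of them above its upper quartile of 0.506. Just above that quartile were egl-18 at 0.509 and elt-6 at 0.512, which share 6 regions and so are not separate cases. lin-26, which had no optimal peak, was second with 1.03 summits per kb, a density found or exceeded at 2.31% of all genes. Of its 13 regions, however, 8 had a start of lir-1 and 3 a start of F18A1.1 as the nearest one, which left 2 nearest to lin-26. Of the 19 regions at nhr-23, 12 were nearest to a start of nhr-23, 5 to cnnm-4, and 1 each to swsn-9 and C01H6.4. The optimal peaks were 13 of the 110 regions of these genes, and without optimal peaks the medians were 0.581 and 0.203. For the optimal list the mean was 0.0827 per kb over the members and 0.0469 over all genes. The pooled list includes background down to its 30000 regions, and whether its lower regions at these genes reflect SMA-3 was not tested. The searched span was somewhat longer for the members, with a median of 15.5 kb against 12 kb for all genes.

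**Figure D3:**
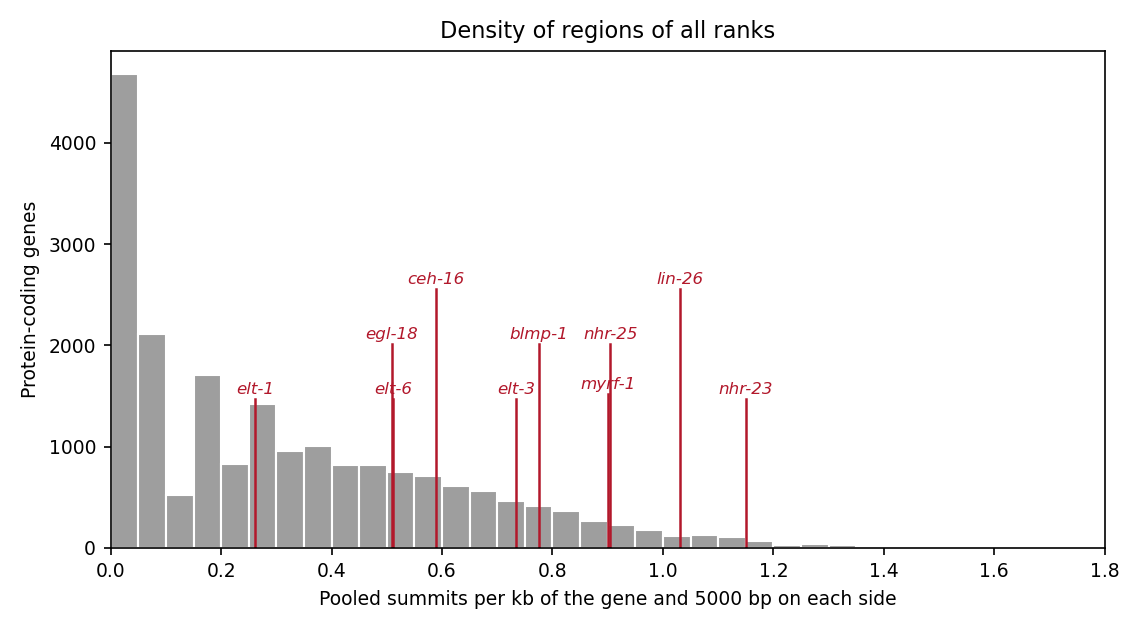
The grey histogram counts all protein-coding genes by the number of pooled summits per kb of the gene and its 5000 bp flanks, and a labelled line marks each of the 10 genes; line height carries no value. All 10 genes lie above the all-gene median of 0.254 pooled summits per kb, with nhr-23 and lin-26 highest at 1.15 and 1.03.

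The word TGATAA was more frequent in the windows around the 13 summits than in those of the whole list at each window width, as a description with no test. Of the 13 windows of 151 bp, 6 held TGATAA (46.2%), against 18.9% of all optimal windows and 14.2% of the 6000 lowest-ranked regions. They belong to elt-1, to elt-3 with 3 windows, and to nhr-23 and blmp-1 with their lower peaks. The remaining elt-3 window, of the intronic peak at rank 2871 with a signal of 97.2, held no match to any word at 151 bp. It overlaps exons of the non-coding genes K02B9.7 and K02B9.8. The elt-3 window at rank 3493 held 4 matches, beginning at bases 19, 44, 61 and 112, a number reached by 0.285% of all optimal windows. The called peak there is 116 bp wide and begins at 13937567, so the match at base 19 lies outside it. The elt-1 window held 2 matches to TGATAA and 2 to AGATAA. Both elt-3 windows printed above overlap no exon, and their clustering of GATA words is a feature of sequence alone, with no measure here of a GATA factor. At 101 bp TGATAA stood in 30.8% of the member windows and 13.3% of all, and at 301 bp in 46.2% and 33.8%. AGATAA was in 1 member window at 151 bp (7.69%, against 10.2%). Either GATA word stood in 46.2% of the member windows and 25.9% of all at 151 bp, in 30.8% and 18.3% at 101 bp, and in 46.2% and 45.3% at 301 bp.

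Any Smad word was found in 5 of the 13 windows (38.5%), against 42.2% of all optimal windows and 24% of the lowest-ranked regions. The order turned with the width: 23.1% against 33.3% at 101 bp, and 61.5% against 56% at 301 bp. GTCTG stood in 3 (23.1%, against 24.3% of all), and in every case as part of CAGACA, which 12.7% of all windows held. The member share of CAGACA was above that of all windows at the other widths too, at 15.4% against 9.08% for 101 bp and 38.5% against 20.2% for 301 bp. At 151 bp the windows with CAGACA were those of both myrf-1 peaks and of the ceh-16 peak, which is nearest to dnj-10. At 301 bp the elt-3 windows at ranks 2871 and 3998 held it too. The intronic myrf-1 window held CAGACA at bases 11 and 102, in opposite orientation. GGCGC was in 2 windows (15.4%, against 23.5%), with 3 matches at bases 82, 88 and 89 of the elt-3 window at rank 3493, where the last of these overlap, and 2 overlapping matches at the end of the elt-1 window. The nhr-25 window, second in signal among the genes, held no Smad or GATA word, which says only that those letters are not in these 151 bases.

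Of the other words, GAGAGA was in 5 windows (38.5%, against 31.7% of all and 10.1% of the lowest-ranked regions), namely those of nhr-25, of the higher myrf-1 and blmp-1 peaks, of elt-1 and of the downstream elt-3 peak. The nuclear receptor half-site AGGTCA was in 1 window, the elt-3 window at rank 3998 (7.69%, against 6.35%). The E-box CACGTG and the Blimp-type word TTCACTT were in none, against 9.44% and 4.61% of all optimal windows. Base composition varied widely beside these counts, from 29.8% G and C at ceh-16 to 65.6% at the higher nhr-23 peak, with a median of 47% against 43% for all optimal windows. The 6 windows with TGATAA ran from 35.1% (elt-3, rank 3998) to 50.3% (nhr-23, rank 3839), and 3 of them, at 43%, 45% and 50.3%, were at or above that median of all windows. The part of base composition in the counts was not tested.

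**Figure D4:**
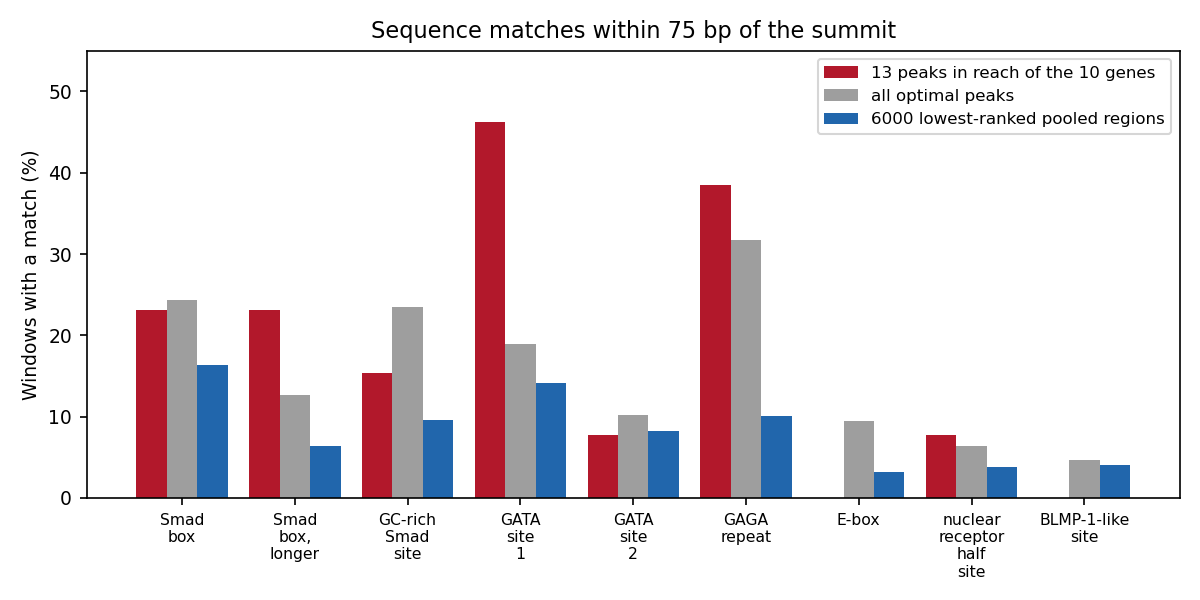
For each sequence word the chart gives the percent of 151 bp windows with at least 1 match on either strand among the 13 member peaks, all optimal peaks and the 6000 lowest-ranked regions. TGATAA is at 46.2% in the member windows and 18.9% in all optimal windows, whereas GTCTG is at 23.1% and 24.3%.

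The 10 genes were set beside 3 further lists. Of 20 other regulators of epidermis and seam cells, 10 had an optimal peak in reach (50%, 27.2% to 72.8%) and 4 a promoter peak (20%, 5.73% to 43.7%). Their highest were at sys-1, a beta-catenin of the seam Wnt pathway, with a signal of 489 at rank 121 but 134 bp upstream of the histone gene his-68, at lin-42, the Period homologue, with 277, and at wrm-1, another beta-catenin, with 238. Of 21 epidermal effector genes, which encode collagens, junction and matrix proteins, 11 had a peak in reach (52.4%, 29.8% to 74.3%) and 4 a promoter peak (19%, 5.45% to 41.9%), led by mup-4 with 284, fbn-1 with 247 and dlg-1 with 243. The fbn-1 peak lay 19076 bp from its own start and was nearest to that of upp-1. Of 22 factors of intestine, muscle, pharynx and neurons, 7 had a peak in reach (31.8%, 13.9% to 54.9%) and 2 a promoter peak (9.09%, 1.12% to 29.2%), led by peb-1 with 233, unc-3 with 160 and lin-32 with 129. The unc-3 peak lay 13530 bp from its own start and was nearest to that of tatn-1. The interval of the 10 genes for a promoter peak overlaps those of all 3 lists, and no difference between lists was tested. The lists, like the 10 genes, were chosen with earlier results of these data known. Having 2 or more optimal peaks in reach was found for elt-3, nhr-23, blmp-1 and myrf-1, that is 4 of 10 (40%), against 35% of the other regulators, 33.3% of the effector genes, 13.6% of the factors of other tissues and 14.5% of all genes.

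**Figure D5:**
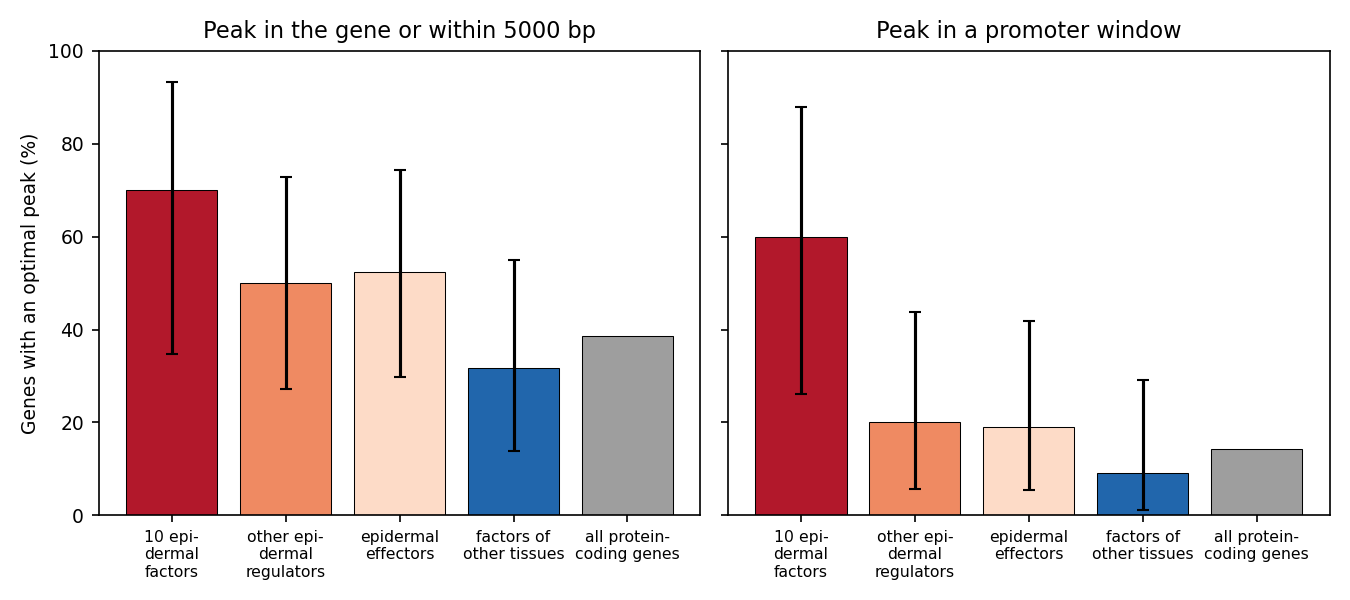
For each gene list the chart gives the percent of genes with an optimal peak in reach and with an optimal promoter peak, with exact 95% binomial intervals, beside the percent of all protein-coding genes. The 10 epidermal and seam transcription factor genes stand at 70% and 60%. The 20 other epidermal and seam regulators stand at 50% and 20%, and the 21 epidermal effector genes at 52.4% and 19%. The 22 factors of other tissues stand at 31.8% and 9.09%, and all genes at 38.6% and 14.3%, with wide intervals for every list.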

How the data were processed

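Per the labels and the listing deposited with each sample, regions were called for each replicate against 1 shared control, again on both replicates pooled, and filtered by an irreproducible discovery rate procedure into the optimal list. The aligner, caller, settings and read depth were not given in the sources used here, so intervals cover the counting of genes only. Column 7 of each deposited list is the signal value of the authors, used here to rank regions within a list. Column 9 is the −log10 q of the authors, which was at its highest in 6361 of the 30000 pooled regions and was not used for ranking. The optimal list was identical to the 4205 highest pooled regions; 25 of its intervals repeat another with a different summit, and all were kept. Signals of different lists were not compared, since their scaling is not given.

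The ce11 lists were used with Ensembl release 115 genes (19973 protein-coding genes, 29314 start sites) and RefSeq sequence of the same assembly. Counts, distances and word searches were made in Python 3.11.15 with scipy 1.17.1, numpy 2.4.6 and pandas 2.3.3, and drawn with matplotlib 3.10.9, after the steps were tested on simulated data. Binomial intervals are exact (Clopper-Pearson, 95%). All 10 members are named, and of each other list the 3 genes with the highest optimal summit in reach. Alternatives changed the reach, the promoter bounds, the list length, the replicate, the overlap and the window. The symbol bus-8 did not match the annotation and was left out. The members and lists were chosen with earlier results of these data known.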

Additional observations from a re-analysis of the deposited data

How the results depend on the processing

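The count of 7 genes with an optimal peak in reach ran from 5 to 9 under the alternatives tried: 6 within 2000 bp (25.9% of all genes), 8 within 10000 bp (53.6%), 7 by interval overlap (39.2%), 5 with the highest-ranked 2102 peaks (24.5%), 7 with peaks over both replicates (33.3%), 6 by nearest start (15.7%), 7 to 8 with 1 replicate left out (38.3% and 38.5%), and, chosen after seeing the data, 9 with the ce10 list length (44.5%) and 7 with RefSeq gene bounds (38.6%). The promoter count of 6 fell to 2 with the highest-ranked 2102 peaks, against 8.36% of all genes, and was 4 without replicate 1 (14.3%) and 6 without replicate 2 (13.9%). It was 6 from 500 bp (11.6%) or 2000 bp (18.4%) upstream and by nearest start (10.9%). The median rank of the highest region, 2048, was 2089 to 2240 with 1 replicate left out. The median optimal summits per kb, 0.0695 (0 for all genes), was 0.106 within 2000 bp (0) and 0.0598 within 10000 bp (0.0385). Of the 13 peaks, 9 were over a region of both replicates, 7 with a reciprocal overlap of 50%, 5 against replicate lists of 2102 regions and 13 against full lists. Windows with any Smad word numbered 5 of 13 in the 151 bp windows (38.5%, against 42.2% of all), 3 with 50 bp on each side (23.1%, against 33.3%) and 8 with 150 bp (61.5%, against 56%), so the order of the shares turned. No paired analysis was possible because there was 1 group.

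With 2 replicates of 1 group, 10 genes, unknown depth and no untagged strain analysed here, these values describe the lists and do not measure binding at a cell type. The peaks at nhr-23 (rank 3839), elt-3 (3493 and 3998) and blmp-1 (4129) rest on 1 replicate each among the first 4205 regions. The cause of the differences between settings was not tested.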
